A study of Homo sapiens with 12 samples.

Results

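The replication-dependent histone genes were followed in lists of open chromatin from MIAPaCa2 cells, an established human line of pancreatic ductal adenocarcinoma. They were taken as the protein-coding genes of the GRCh38 RefSeq table on chromosomes 1 and 6 whose symbols start with H1-, H2AC, H2BC, H3C or H4C, which gave 68 of 19974 protein-coding genes. The set held 6 H1 genes, 17 H2A genes, 18 H2B genes, 13 H3 genes and 14 H4 genes, with 55 of the 68 on chromosome 6 and 13 on chromosome 1. A gene was counted as having a peak in a library when a peak overlapped its span extended by 1 kb on both sides, and the bases of that window under peaks were its covered bases.

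Histone proteins package DNA: the core histones H2A, H2B, H3 and H4 form the nucleosome, and H1 binds the DNA that enters and leaves it. The replication-dependent genes are short, lack introns in their main transcripts, lie in clusters and are transcribed mainly in S phase, when new DNA has to be packaged, from near-identical copies whose mRNAs end in a stem-loop in place of a poly(A) tail. Octamer, CCAAT and TATA sequences are known elements of histone promoters, and NPAT, phosphorylated by cyclin E and CDK2, is the activator shared by the clusters.

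ATAC-seq, in which the Tn5 transposase places sequencing adapters in accessible DNA, had been applied to 4 groups of 3 libraries: untreated parental cells, parental cells given oxamate, untreated oxamate-resistant cells and oxamate-resistant cells given oxamate. Oxamate inhibits lactate dehydrogenase A. Treated cells received oxamate for a day and the others only vehicle, and the resistant cells were survivors of weeks of growth in oxamate, so that the resistant groups stand for 1 selected population and not for independent selections. Nothing in the labels says that the libraries of a group came from separate cultures, and p-values then measure only the spread between these libraries, which may be technical.

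The deposited lists held no read counts. Covered bases differed between libraries as a whole: the resistant libraries covered 27.7 ± 4.24 Mb (SD, n = 6) and the parental libraries 20.4 ± 4.40 Mb (SD, n = 6), a ratio of means of 1.35. The narrowest peak, which follows the fragment length, was 67 to 87 bp in the parental lists and 94 to 124 bp in the resistant lists, with no overlap, and relative depth derived from the lists ran from 1.33 to 2.77 in parental and from 1 to 1.85 in resistant libraries. Phenotype, fragment length and total coverage cannot be told apart in this design. The main counts below are therefore set beside the share over all genes, and those by phenotype also beside coverage scaled to equal library totals. Values of single genes are unscaled unless stated. Of the marker genes of the line, KRT8, KRT18 and VIM had a peak in 12 libraries, KRT19 in 10 and EPCAM in 6. CDKN2A and MTAP, known to be deleted in this line, had a peak in 0 libraries. Of the markers of other cell types, PTPRC had a peak in 2 libraries and CD3E and DCN in 0, while PECAM1, CDH5, VWF, COL1A1 and COL1A2 had one in 12. A peak in a gene's window is therefore not read here as expression, which the lists do not hold.

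Most histone genes were open in every library and a minority was closed in every library, with little in between. A peak lay at 49 of the 68 genes in all 12 libraries (72.1%, against 66.5% of all protein-coding genes) and at 15 in 0 libraries (22.1%, against 12.8%). Only 4 genes had a peak in 1 to 11 libraries. Histone genes are short, and their windows offer few bases: of the 1844 other protein-coding genes up to 3 kb long, 27.3% had a peak in 12 libraries and 50.4% in 0. Windows also overlapped, and 52 of the 68 genes shared window bases with another histone gene, so that the 68 windows merged into 38 stretches of 209 kb in all. The genes are therefore not independent of each other.

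The families differed in how many genes were open, without a test. In all 12 libraries a peak was found at 14 of 17 H2A genes, 14 of 18 H2B genes, 4 of 6 H1 genes, 9 of 14 H4 genes and 8 of 13 H3 genes. By the mean over 12 libraries, the open gene with the most covered bases was H2BC4 (1827 bp). In the other families it was H2AC21 (1795 bp), H4C5 (1776 bp), H3C4 (1655 bp) and H1-2 (1525 bp). The H3C4 value includes the bases over H2AC7, which lies within its RefSeq span. The open gene with the fewest was H3C10 (467 bp). The median over the 49 open genes was 1154 bp, against 1147 bp over all 13287 protein-coding genes with a peak in 12 libraries, whose windows vary in length. Over the other protein-coding genes up to 3 kb long with a peak in 12 libraries it was 926 bp. The strongest peak at an open gene had a fold over local background, in the median over libraries, of 3.75 to 8.88 with a middle value of 5.25, and it ranked between the top 5.75% (H2AC15 and H2BC15, which share it) and the top 45.0% (H4C11) of its own list.

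The promoters of the open gene with the most covered bases in each family are printed to show which elements they carry, and are followed by promoters of genes without a peak. The sequences are from RefSeq (GRCh38.p14), which gave 63 of the 68 genes a promoter of 250 bases before to 50 bases after the start, each read 5′ to 3′ on the strand of its gene. Capitals mark matches to the octamer ATGCAAAT, to the CCAAT box, to the TATA sequence TATAAA or to the E2F-type sequence TTTCGCGC, on either strand, and none of these overlapped another. H1-2 lies at chr6:26056421-26056720 (minus strand), H2AC21 at chr1:149887916-149888215 (minus), H2BC4 at chr6:26123877-26124176 (minus), H3C4 at chr6:26199244-26199543 (minus) and H4C5 at chr6:26204360-26204659 (plus). RefSeq gives H3C4 and H2AC7 the same start, so the H3C4 entry is the promoter of both.
H1-2: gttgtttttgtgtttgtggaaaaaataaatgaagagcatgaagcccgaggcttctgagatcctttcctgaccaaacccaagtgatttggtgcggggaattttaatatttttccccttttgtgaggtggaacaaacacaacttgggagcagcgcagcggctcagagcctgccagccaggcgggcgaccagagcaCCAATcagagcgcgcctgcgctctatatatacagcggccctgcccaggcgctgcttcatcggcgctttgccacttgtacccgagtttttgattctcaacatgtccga
H2AC21: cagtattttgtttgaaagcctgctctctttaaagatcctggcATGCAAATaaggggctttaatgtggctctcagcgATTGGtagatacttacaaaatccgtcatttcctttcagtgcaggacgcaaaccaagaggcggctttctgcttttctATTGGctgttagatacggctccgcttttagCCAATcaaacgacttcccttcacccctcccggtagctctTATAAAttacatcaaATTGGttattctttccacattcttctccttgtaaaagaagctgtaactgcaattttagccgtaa
H2BC4: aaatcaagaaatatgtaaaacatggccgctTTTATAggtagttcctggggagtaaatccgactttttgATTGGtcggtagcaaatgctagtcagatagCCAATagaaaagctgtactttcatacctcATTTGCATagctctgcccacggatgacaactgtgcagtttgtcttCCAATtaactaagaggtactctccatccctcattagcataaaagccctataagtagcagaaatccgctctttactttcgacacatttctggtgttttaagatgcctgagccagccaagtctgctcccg
H3C4 and H2AC7: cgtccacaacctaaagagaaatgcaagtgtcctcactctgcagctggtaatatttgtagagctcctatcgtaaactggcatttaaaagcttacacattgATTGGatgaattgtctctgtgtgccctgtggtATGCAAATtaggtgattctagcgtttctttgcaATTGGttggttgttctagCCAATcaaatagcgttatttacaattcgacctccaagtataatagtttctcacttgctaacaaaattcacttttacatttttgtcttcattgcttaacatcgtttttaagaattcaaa
H4C5: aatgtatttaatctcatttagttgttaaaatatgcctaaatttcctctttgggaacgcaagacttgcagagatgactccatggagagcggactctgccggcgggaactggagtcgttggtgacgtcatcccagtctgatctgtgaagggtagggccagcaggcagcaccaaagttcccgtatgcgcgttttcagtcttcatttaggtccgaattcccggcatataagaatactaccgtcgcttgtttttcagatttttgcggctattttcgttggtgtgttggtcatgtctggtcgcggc

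The families differed in these elements. The octamer was in 11 of 16 H2A promoters and 14 of 18 H2B promoters. It was in 1 of 11 H3 promoters (that of H3C4, shared with H2AC7) and in 0 of 6 H1 and 0 of 12 H4 promoters. At 11 pairs of H2A and H2B genes that start back to back, the 2 promoter entries overlap. A match there, on either strand, can count for both genes, so these counts and the shares below are not of independent sequences. CCAAT was in every promoter of the H1, H2A, H2B and H3 families and in 3 of 12 H4 promoters. Over the 63 promoters the octamer was in 41.3%, CCAAT in 85.7%, TATAAA in 65.1% and TTTCGCGC in 19.0%, against 1.72%, 36.4%, 9.75% and 0.81% of the 15812 coding promoters of the same length. The histone promoters were also poorer in G and C, with a median of 43% against 62.7%, and held a median of 11 CpG against 22. Among the 44 genes with a peak in 12 libraries and a promoter entry, 47.7% had the octamer and 68.2% TATAAA, and among the 15 genes with no peak 26.7% and 53.3%. A match is a description of these letters and not a bound site.

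The 15 genes without a peak in any library were H1-1, H1-6, H2AC1, H2BC1, H2BC9, H2BC10, H3C7, H3C8, H3C14, H3C15, H4C6, H4C7, H4C9, H4C12 and H4C14. H1-6, H2AC1 and H2BC1 are the histone genes used in the testis, and each was at 0 covered bases in all 12 libraries. H4C6, H4C7, H3C7, H2BC9, H3C8 and H2BC10 followed each other without an open histone gene between them over 33.0 kb (chr6:26240393-26273412), between H1-3 and H4C8, which were open in 12 libraries. This stretch held 3 peaks in 2 of the libraries, at most 212 bp wide and with a fold of at most 3.24, none of them in the window of a gene.

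Promoters of closed genes are printed next because they carry some of the same elements and because several have a close copy. H4C14 lies at chr1:149832407-149832706 (plus), H1-6 at chr6:26108086-26108385 (minus), H2BC9 at chr6:26251364-26251663 (plus) and H4C12 at chr6:27831511-27831810 (minus). H4C11, which had a peak in its window in 12 libraries, is added for comparison with H4C12 and lies at chr6:27823842-27824141 (plus); it was chosen after its values were seen. The promoter of the closed H2BC9 holds CCAAT and the octamer on the reverse strand, 49 bases before the start.
H4C14: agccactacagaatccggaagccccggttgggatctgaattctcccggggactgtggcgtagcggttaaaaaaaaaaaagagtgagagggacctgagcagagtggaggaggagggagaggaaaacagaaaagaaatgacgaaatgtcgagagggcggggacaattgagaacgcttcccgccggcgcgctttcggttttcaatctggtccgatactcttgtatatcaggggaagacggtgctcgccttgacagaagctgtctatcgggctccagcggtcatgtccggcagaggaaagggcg
H1-6: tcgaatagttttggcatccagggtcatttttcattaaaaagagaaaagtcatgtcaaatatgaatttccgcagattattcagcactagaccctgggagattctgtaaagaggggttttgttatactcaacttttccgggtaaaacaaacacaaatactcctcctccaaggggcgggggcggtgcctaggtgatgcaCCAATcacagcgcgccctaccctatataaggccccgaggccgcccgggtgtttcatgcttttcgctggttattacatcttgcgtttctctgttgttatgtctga
H2BC9: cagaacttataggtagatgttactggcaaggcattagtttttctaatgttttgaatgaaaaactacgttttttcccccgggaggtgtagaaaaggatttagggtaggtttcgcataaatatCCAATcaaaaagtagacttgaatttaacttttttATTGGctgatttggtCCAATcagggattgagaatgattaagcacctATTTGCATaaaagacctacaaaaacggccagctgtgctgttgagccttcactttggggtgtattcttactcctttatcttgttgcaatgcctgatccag
H4C12: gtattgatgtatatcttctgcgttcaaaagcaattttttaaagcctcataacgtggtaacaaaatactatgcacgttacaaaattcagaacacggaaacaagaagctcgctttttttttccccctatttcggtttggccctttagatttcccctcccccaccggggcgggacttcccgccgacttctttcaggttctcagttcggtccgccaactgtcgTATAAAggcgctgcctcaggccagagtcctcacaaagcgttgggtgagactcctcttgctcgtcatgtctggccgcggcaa
H4C11: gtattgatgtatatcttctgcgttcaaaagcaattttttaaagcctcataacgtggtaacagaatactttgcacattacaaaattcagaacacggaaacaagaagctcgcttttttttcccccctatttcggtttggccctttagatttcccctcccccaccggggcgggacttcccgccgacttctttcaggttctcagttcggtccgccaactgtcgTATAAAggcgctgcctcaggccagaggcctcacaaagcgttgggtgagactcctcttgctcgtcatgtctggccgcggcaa

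Some closed genes have a near-identical copy, and the authors removed reads that did not map to a unique place. Without gaps and over shifts of up to 50 bases, the promoters of H4C14 and H4C15 were identical over 300 bases, those of H3C14 and H3C15 over 296 and those of H2AC18 and H2AC19 over 299. The promoters of H4C11 and H4C12 differed at 5 of 300 positions, counted from the 5′ end and written from H4C11 to H4C12 as G62A, T69A, A75G, C119T and G246T. Peaks were absent in 12 libraries from the promoters of H4C12, H4C14, H4C15, H3C14, H3C15, H2AC18 and H2AC19, all of which belong to these copies. The other 11 of the 15 closed genes had no such copy, with at most 43% of bases equal to those of any other histone promoter (H3C8). The part of read removal in the absence of peaks was not tested.

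The genes with a peak in only some libraries all lay in the lower chromosome 1 block, and their promoters had a peak in 0 libraries. H2BC18 had 239, 205 and 75 covered bases in untreated parental libraries and 0, 0 and 0 in treated ones, and 0, 121 and 0 in untreated resistant libraries and 0, 0 and 378 in treated ones. It was covered in each untreated parental library and in no treated parental library. Its RefSeq span of 29.7 kb is long for a histone gene, and the peak lay in a region of 258 bp (chr1:149811971-149812228) just inside its upper end, covered in 5 libraries, with a further region of 172 bp in 1. H2AC19 had a peak in 5 libraries, of which 4 were resistant, H2AC18 in 2 and H3C13 in 1, with at most 158 covered bases in any library. At H3C13 these were 4 bases at the edge of the H2BC18 region. At H2AC18 and H2AC19 they were the edges of regions that also lie in the H4C15 window. Presence could be tested at H2BC18 and H2AC19 only, since totals outside 5 to 7 of 12 cannot pass. By phenotype, a peak was present at H2BC18 in 2 resistant and 3 parental libraries (two-sided Fisher's exact p = 1.00) and at H2AC19 in 4 and 1 (exact p = 0.242). By treatment, the exact p was 0.242 at H2BC18 and 1.00 at H2AC19. No histone gene passed at an adjusted or unadjusted p under 0.05, and over all 665 genes that could be tested 0% passed after adjustment, with 5.71% higher and 2.11% lower in resistant libraries and 0.15% higher and 1.5% lower in treated libraries at an unadjusted p under 0.05.

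The number of histone genes with a peak hardly moved between groups, whereas the bases under peaks did. A parental library had a peak at 50.7 ± 0.577 (SD, n = 3) histone genes without and 49 ± 0 with oxamate, and a resistant library at 50.7 ± 0.577 without and 50 ± 1 with it. In the merged windows, untreated parental libraries covered 42.7, 41.7 and 36.2 kb, treated parental libraries 25.8, 32.2 and 31.2 kb, untreated resistant libraries 51.9, 45.9 and 45.3 kb, and treated resistant libraries 47.6, 41.1 and 43.9 kb. The treated parental libraries were below the other 9, and the untreated parental and the treated resistant libraries overlapped. As a share of all bases under peaks in the library, the same windows held 0.170 ± 0.00562% (SD, n = 3), 0.175 ± 0.0111%, 0.166 ± 0.0128% and 0.169 ± 0.0206% in the same order, and these ranges overlapped in every pair of groups. Treated parental cells had the lowest mean at each of the 49 open genes, as at 90.7% of all coding genes open in 12 libraries. With coverage scaled to equal library totals they were lowest at 9 of the 49 (18.4%, against 31.9% of all).

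Resistant cells had more bases under peaks than parental cells at 18 of the 50 histone genes that could be tested, and fewer at 0. The test was limma on covered bases, with resistant minus parental averaged over untreated and treated cells and p-values adjusted over all 15902 genes with a mean of at least 50 covered bases. The 18 genes make 36%, against a background of 29.2% higher and 0.17% lower. The median difference was 253 bp over the histone genes and 262 bp over all genes tested. With coverage scaled, the median over the histone genes turned to -71.72 bp and that over all genes to -15.90 bp, and 0 of the 50 passed (background 4.1% higher and 1.24% lower). The unadjusted p was under 0.05 at 5 genes (background 25.4%), of which 4 were lower in resistant cells. As H2A and H2B neighbours share windows, the 18 genes stand for 14 merged windows of 29 tested. The count was 2 with gene spans alone (background 19.1%) and 7 by exact permutation (background 11.4%), where 32 had an unadjusted p under 0.05 (background 41.8%). It was 7 without parental treated replicate 1, 8 without resistant treated replicate 1 or 3, 9 without resistant untreated replicate 1, 10 without parental untreated replicate 3 and 11 without parental treated replicate 3.

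H3C4, which encodes an H3.1 copy, had the largest difference. It had 1589, 1407 and 1280 covered bases in parental libraries without oxamate and 1053, 1147 and 1246 with it, and 2176, 1982 and 2012 in resistant libraries without oxamate and 1989, 1951 and 2031 with it. Every resistant library lay above every parental library. The difference was 736.50 ± 102 bp (SE, n = 6 against 6, limma adjusted p = 0.00268), and with scaled coverage 246 bp (adjusted p = 0.291). Its RefSeq span contains H2AC7 whole, so its window of 4510 bp also counts the bases over H2AC7. The H2AC7 window, of 2510 bp, differed by 179.5 ± 68.9 bp (SE, limma adjusted p = 0.0668). In the part of its window outside that of H2AC7, the groups covered 624 ± 55.0, 528 ± 170, 1142 ± 17.6 and 1124 ± 39.4 bp (SD, n = 3) in the same order, and resistant libraries were again all above parental ones. Over the gene span alone, without the 1 kb on either side, the difference was 171 bp (adjusted p = 0.106).

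H2AC13, an H2A gene that shares its promoter region with H2BC13, had 1108, 1210 and 801 covered bases in parental libraries without oxamate and 611, 614 and 871 with it, and 1484, 1550 and 1335 in resistant libraries without oxamate and 1551, 1384 and 1259 with it. The phenotypes did not overlap, and the difference was 558 ± 100 bp (SE, limma adjusted p = 0.00677). With scaled coverage it was 243 bp (limma adjusted p = 0.220). H2BC4, next to H2AC6, had between 1408 and 1919 covered bases in parental and between 1955 and 1996 in resistant libraries, without overlap. Its difference of 291 ± 117 bp (SE) did not pass (limma adjusted p = 0.0763), and with scaled coverage it was -275 bp. H3C4, H2AC13 and H2BC4 were the 3 of 50 histone genes whose phenotypes did not overlap, all higher in resistant cells. Of all genes tested, 5.06% were higher and 0.0126% lower without overlap. With scaled coverage 0 of the 50 were without overlap in either direction, against 238 higher and 129 lower of all 15902 genes.

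The H4 genes encode the same H4 protein apart from H4C7. Of the 9 tested, 5 were higher in resistant cells, against 29.2% of all genes tested. H4C2 was higher by 491 ± 91.2 bp (SE), H4C8 by 471 ± 96.0 bp, H4C11 by 648 ± 144 bp and H4C4 by 309 ± 90.8 bp. Their limma adjusted p-values ran from 0.00757 for H4C2 to 0.0295 for H4C4. H4C15 was also called, from bases kilobases away from its start, as given below. At H4C8 the untreated parental libraries had 923, 955 and 941 covered bases and the untreated resistant libraries 1397, 1414 and 1403. Unscaled, these groups were apart by far more than their spread, while 1 treated resistant library, at 882, lay among the parental values. With scaled coverage the untreated groups overlapped at H4C8. In untreated cells 0 of the 50 histone genes passed in limma, unscaled or scaled. With scaled coverage 0 of the 50 histone genes passed, and H4C2, H4C8, H4C11 and H4C4 differed by 230, 149, 421 and 37.1 bp. Of the other families, 2 of 4 H1, 4 of 14 H2A, 3 of 15 H2B and 4 of 8 H3 genes were called, without a test between families. They were H1-3 and H1-5, H2AC4, H2AC11, H2AC13 and H2AC16, H2BC3, H2BC11 and H2BC13, and H3C2, H3C4, H3C6 and H3C11. H2AC4 was higher by 430 ± 88.7 bp (SE), H2BC13 by 486 ± 125 bp, H3C6 by 389 ± 101 bp, H2AC16 by 409 ± 111 bp, H2AC11 by 519 ± 158 bp and H3C2 by 273 ± 83.6 bp.

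**Figure D1:**
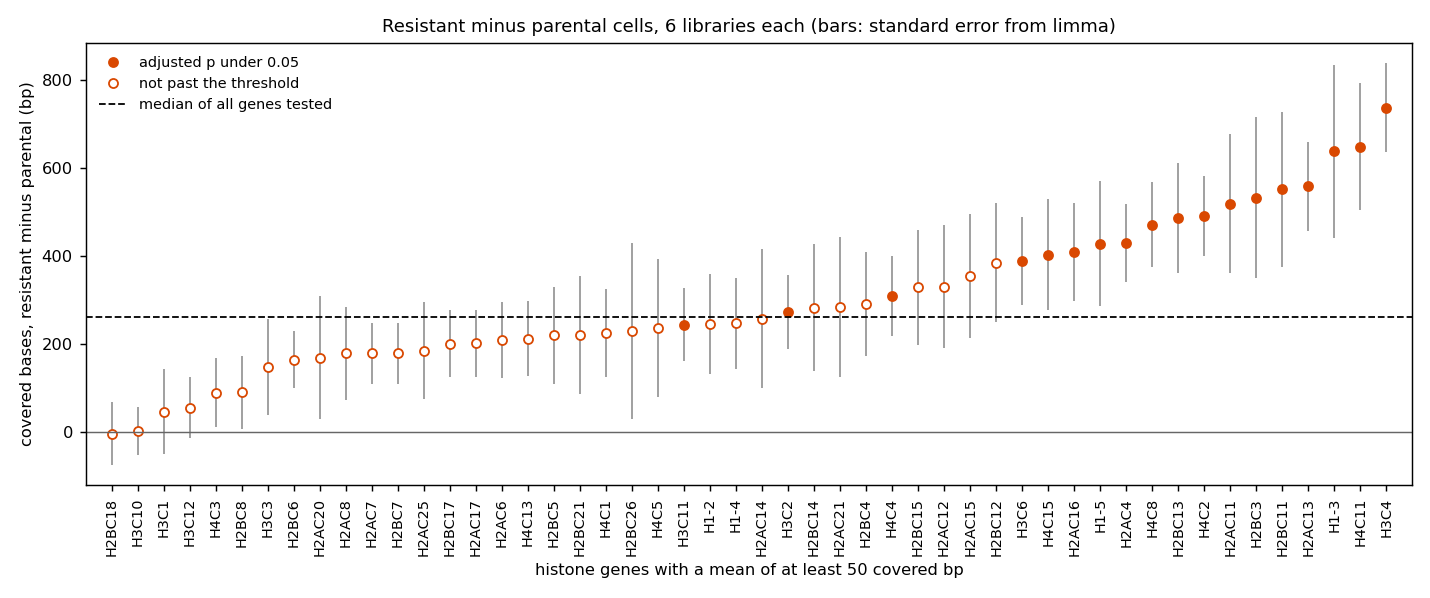
Difference in covered bases between 6 resistant and 6 parental libraries (vertical axis, bp) at the 50 histone genes tested, sorted by size, with standard errors from limma. The 18 filled points passed an adjusted p of 0.05, and the dashed line is the median over all genes tested (262 bp), near the middle of the histone genes.

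Other histone genes stayed near the same unscaled coverage. H3C10 had 490, 434 and 589 covered bases in parental libraries without oxamate and 367, 400 and 514 with it, and 466, 508 and 435 in resistant libraries without oxamate and 435, 505 and 465 with it. All 4 groups overlapped, and the ratio of the means of resistant over parental cells was 1.01, the lowest of the 49 open genes. With scaled coverage the difference at H3C10 was -145 bp (limma adjusted p = 0.261). Over the 49 the unscaled ratio had a median of 1.25 and a highest value of 1.88 at H4C11. The median over all coding genes open in 12 libraries was 1.31. The 1 histone gene with a negative difference was H2BC18 (-3.33 ± 71.3 bp, SE, limma adjusted p = 0.971).

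Within each treatment, calls by phenotype were made in the treated cells. There, 13 of 50 histone genes were higher in resistant libraries and 0 lower (limma, background 23.6% higher and 0.233% lower), with all but H2AC6 among the 18. They were H1-3, H2AC4, H2AC6 and H2AC13, H2BC3 and H2BC13, H3C2, H3C4 and H3C6, and H4C2, H4C8, H4C11 and H4C15. The groups of 3 did not overlap at 34 of 50 (68%), all higher in resistant cells, against 49.2% higher and 0.698% lower of all genes. With scaled coverage they did not overlap at 4 of 50 higher and 5 lower, against 2304 and 2041 of all 15902 genes. The limma count was 1, 4, 2 and 7 without resistant treated replicate 1 or 3 and parental treated replicate 1 or 3 in turn, and 2 with gene spans alone (background 13.6%), 20 with 2 kb added (24.3%) and 25 with peaks of a -log10 q of at least 3 (43.9%). The median difference was 378 bp over histone genes and 356 bp over all genes. With scaled coverage 0 of 50 passed (background 4.62% higher and 1.67% lower), 4 had an unadjusted p under 0.05 (background 26.1%), and the histone median turned to -101.06 bp. In untreated cells, 0 of 50 passed in limma (background 0.0943% higher), 8 had an unadjusted p under 0.05 (background 14.2%), and groups did not overlap at 8 of 50, all higher in resistant cells (background 18.1% higher and 0.956% lower). With scaled coverage 0 of 50 passed (background 0.0126% higher) and 0 had an unadjusted p under 0.05 (background 7.55%). The untreated groups then did not overlap at 1 of 50 higher and 4 lower, against 1026 and 1528 of all 15902 genes. H3C4 was higher by 842 ± 144 bp (SE) in treated cells (limma adjusted p = 0.00834) and differed by 631 ± 144 bp in untreated cells (adjusted p = 0.130). The difference between these effects is the interaction below.

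**Figure D2:**
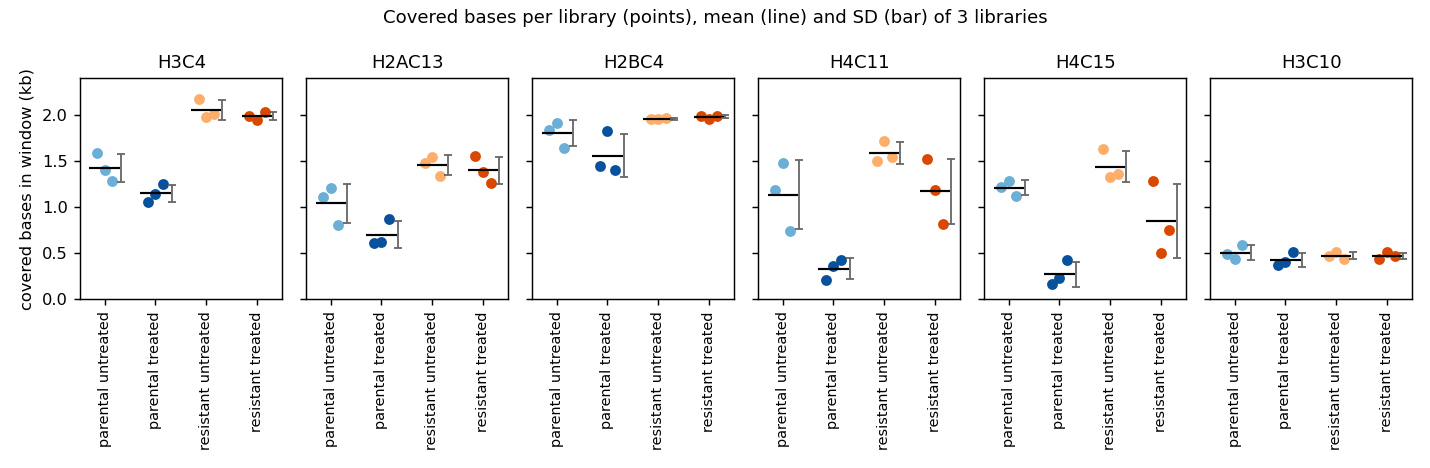
Covered bases per library (points, kb) at 6 histone genes, with the mean (line) and SD (bar) of 3 libraries per group. At H3C4, H2AC13 and H2BC4 all resistant libraries lie above all parental libraries, at H4C11 and H4C15 the treated parental libraries are the lowest, and at H3C10 the groups overlap.

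Oxamate had no effect that passed the test at any histone gene, averaged over both populations or within either. Treated minus untreated, 0 of 50 passed in limma, against a background of 0% in each direction, and 9 had an unadjusted p under 0.05, all lower with treatment (background 18.2%). The exact permutation test within strata also called 0 (background 0%), with 11 at an unadjusted p under 0.05 (background 14.2%). Within parental cells 0 passed (background 0%, with 4 without parental untreated replicate 3) and 12 had an unadjusted p under 0.05 (background 23%). The median difference was -263 bp against -247 bp over all genes, and treated libraries lay below all untreated ones without overlap at 25 of 50 genes (50%), against 34.3% lower and 0.421% higher of all genes. With scaled coverage the histone median turned to 77.0 bp and H4C15 passed, lower with treatment (background 0.107% higher and 0.251% lower). The groups then did not overlap at 7 of 50 higher and 3 lower with treatment, against 1625 and 1522 of all 15902 genes. Within resistant cells 0 passed (background 0%), 3 had an unadjusted p under 0.05 (background 3.87%), and groups did not overlap at 3 of 50, all lower with treatment, against 5.07% lower and 1.19% higher. The ratio of treated over untreated means at the 49 open genes had a median of 0.775 in parental cells (0.740 over all coding genes open in 12 libraries) and of 0.954 in resistant cells (0.951). The comparison in treated cells and that within parental cells share the treated parental libraries.

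The largest differences with oxamate in parental cells were at a pair of H4 genes. H4C15 had 1213, 1287 and 1124 covered bases in parental libraries without oxamate and 157, 229 and 418 with it, and 1633, 1323 and 1357 in resistant libraries without oxamate and 1287, 495 and 752 with it. Treated libraries were lower without overlap in both populations. In parental cells the difference was -940 ± 178 bp (SE, limma adjusted p = 0.0633), on the log2 scale with 100 bp added -1.89 (adjusted p = 0.00943), with scaled coverage -860 bp (adjusted p = 0.0177), and in resistant cells -593 ± 178 bp (adjusted p = 1.00). The ratio of treated over untreated means was 0.222 in parental and 0.588 in resistant cells, the lowest of the 49 open genes in each. RefSeq gives H4C15 a span of 16.8 kb (chr1:149844488-149861240) that contains H2AC19 and H3C15, and its promoter at the upper end had no peak. The covered bases came from its lower end: a region at chr1:149843593-149844439 was covered in 12 libraries, one at chr1:149845269-149846277 in 8, one at chr1:149847766-149849604 in 7 and one at chr1:149849901-149850207 in 5. The region at chr1:149847766-149849604 was covered in 3 untreated and 0 treated parental libraries and in 2 untreated and 2 treated resistant libraries. The values labelled H4C15 are therefore those of sequence kilobases away from its start.

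H4C11 had 1187, 1480 and 739 covered bases in parental libraries without oxamate and 206, 354 and 427 with it, and 1497, 1723 and 1547 in resistant libraries without oxamate and 1520, 1181 and 810 with it. The treated parental libraries were below the other 9. The difference within parental cells was -806 ± 204 bp (SE, limma adjusted p = 0.0878). It was -1.51 on the log2 scale with 100 bp added (limma adjusted p = 0.0146) and -679 bp with scaled coverage (limma adjusted p = 0.127). Within resistant cells it was -419 ± 204 bp (limma adjusted p = 1.00). The promoter printed above was covered in 2 untreated and 0 treated parental libraries and in 3 untreated and 2 treated resistant libraries, and it was the only histone promoter with a peak in 1 to 11 libraries. Its strongest peak also had the poorest median rank of the open genes, as given above.

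No histone gene passed the interaction test, which compares the effect of oxamate between the populations. Of the 50, 0 passed in limma (background 0%) and 0 had an unadjusted p under 0.05 (background 8.23%). The histone genes with the smallest p were H2AC6, where the effect in resistant minus that in parental cells was 349 ± 173 bp (SE, limma adjusted p = 0.618), H3C6 (395 ± 201 bp) and H3C2 (317 ± 167 bp). H1-4, H3C3 and H1-5 had the smallest p of those with a negative interaction, at -208 ± 206, -103 ± 218 and -87.33 ± 284 bp. In the averaged treatment comparison, the 2 positive differences were at H2BC17 (17.8 ± 75.5 bp) and H4C3 (8.50 ± 78.3 bp), and H4C15 (-766 ± 126 bp), H4C11 (-612 ± 144 bp) and H2AC16 (-366 ± 111 bp) had the smallest p of the negative ones, with limma adjusted p-values of at least 0.169.

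Around the start, the open histone genes had a shape of their own. Promoters with a peak in 12 libraries numbered 42 of the 63 (66.7%, against 50.8% of all coding promoters), and the position 250 bp into these genes was covered in 77.0% of gene and library pairs in untreated and 49.2% in treated parental cells, and in 85.7% in untreated and 84.1% in treated resistant cells. The other 7993 coding genes with such a promoter gave 68.5%, 50.02%, 80.95% and 77.6%. At 600 bp past the start, coverage over all libraries was 24.0% for histone genes and 28.1% for the others, but at 1 kb it was 40.7% against 8.52%. Of the 42 histone genes, 36 span up to 1 kb, so for these the position at 1 kb lies beyond the gene. Histone genes up to 1 kb long had 39.6% there and the 25 other coding genes up to 1 kb long with such a promoter 11%. The start is covered by construction, so the percentages on either side are given as a description without a test. Of the 42 genes, 11 were covered at 1 kb in 12 libraries and 19 in 0. Of the 11, 2 had the start of another histone gene within 500 bp of that position (H2AC20 and H2AC21). H1-2, H1-3 and H1-5, H3C1, H4C5, H2AC15, H2AC16, H2BC17 and H2BC21 were the others. Starts of the 5 histone genes without a promoter entry, among them H4C1 next to H3C1, could not be placed and were not counted.

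**Figure D3:**
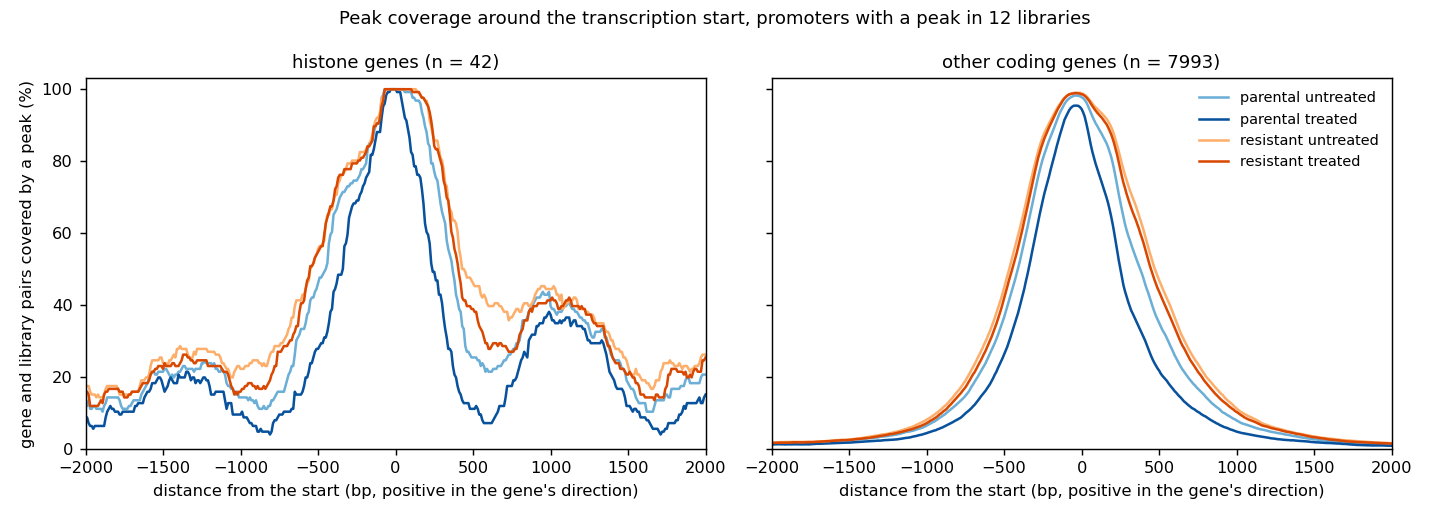
Share of gene and library pairs covered by a peak (vertical axis, %) against distance from the transcription start (bp), for 42 histone genes (left) and 7993 other coding genes (right) whose promoters had a peak in 12 libraries, 1 line per group. Coverage at histone genes falls by 600 bp past the start and is higher again near 1000 bp, which lies beyond genes up to 1 kb long. The treated parental line is the lowest on both sides of the start.

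The spread between libraries of a group differed from gene to gene. H1-2, a linker histone gene, had 1651, 1651 and 1649 covered bases in untreated and 1661, 1634 and 1642 in treated resistant libraries, and 1627, 1638 and 1301 in untreated and 1076, 1581 and 1191 in treated parental libraries. Its untreated resistant libraries lay within a few bases of each other while the parental ones varied more. At H1-3 the untreated resistant libraries had 2269, 1385 and 886 and so varied widely.

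Histone genes that start back to back were open or closed together. Starts on opposite strands, pointing apart and within 1 kb of each other, gave 13 pairs among the 63 genes with a promoter entry, of which 11 joined an H2A and an H2B gene. The starts lay 194 to 979 bp apart with a median of 236 bp. The pairs of H2AC7 and of H3C4 with H2BC7 have the same start sites and were both counted. Both genes had a peak in 12 libraries in 11 pairs and in 0 libraries in 2, which were H2AC1 with H2BC1 and H3C7 with H2BC9. At most of these distances the windows of a pair cover the same promoter region, so their values are not independent: H2AC7 and H2BC7 had the same covered bases in every library. H2BC12 and H2AC12 lie next to each other, but H2AC12 has no promoter entry, so this pair was not counted.

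Genes around the histone genes gave the setting. The replication-independent histone genes had a peak in 12 libraries at 11 of 11, and 3 were higher in resistant cells (limma, 27.3% against 29.2% of all genes): MACROH2A1 by 607 ± 166 bp (SE), H2AJ by 447 ± 152 bp and the linker histone gene H1-10 by 663 ± 228 bp. Of genes for histone transcription and pre-mRNA processing 17 of 17 were open and 4 higher (23.5%). Among them were CDK2 (460 ± 121 bp) and CCNE1 (321 ± 91.7 bp), the kinase and cyclin that act on NPAT. E2F1 (523 ± 150 bp) and LSM11 (225 ± 73.1 bp), a subunit of the U7 snRNP that cuts histone pre-mRNA, were also higher. Of histone chaperone genes 13 of 13 were open and 5 higher (38.5%). These included SSRP1 (746 ± 156 bp) and SUPT16H (296 ± 84.2 bp), the subunits of FACT, MCM2 (224 ± 70.0 bp) and HAT1 (484 ± 154 bp). Of the 19 other coding genes between the histone genes of chromosome 6, 13 were open in 12 libraries. Of the 13 tested, 6 were higher (46.2%), such as BTN2A1 (547 ± 139 bp) and HFE (602 ± 177 bp). SLC17A4, POM121L2 and LOC105375107 had no peak in any library. Ribosomal protein genes, as another set of many highly expressed short genes, were open at 77 of 77 and higher at 19 (24.7%), for example RPS10 by 736 ± 122 bp. None of these lists had a gene lower in resistant cells, and with scaled coverage 0 of each passed except for 1 ribosomal protein gene, which was higher.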

How the data were processed

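The authors trypsinised the cells, isolated nuclei, tagmented them with Tn5, aligned reads with Bowtie2 2.1.0 to hg38, discarded reads that were mitochondrial, duplicated or not uniquely placed, and called broad peaks in each library with MACS2 in paired-end mode. The MACS2 version is not given in the sources used here. The deposited lists give for each peak the authors' score, the authors' fold over local background (a ratio), and the authors' -log10 p-value and -log10 q-value, used here only to rank or filter peaks within a list. No read counts are given, so absolute depth is unknown and no counting interval was derived. Relative depth was derived from the background and the narrowest peak of each list, with the shallowest library at 1.

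Peaks on 23 chromosomes were used, which left out 0.892% of 677901 peaks, and positions are 1-based. Gene spans and promoters came from RefSeq tables of GRCh38. Covered bases in gene spans plus 1 kb were compared with limma 3.58.1 in R 4.3.3 (a mean per group over 12 libraries, trended variance, Benjamini-Hochberg adjustment over all 15902 protein-coding genes with a mean of at least 50 bp). Presence was tested with two-sided Fisher's exact tests at totals of 5 to 7 libraries. The members, gene lists, motifs and tests were chosen with earlier results of these data known. Named were called genes (up to 12 per direction and contrast), otherwise the 3 with the smallest p, genes with a peak in 0 or in 1 to 11 libraries, the widest of each family and up to 4 per list. All histone genes called by phenotype are named. Groups and replicate numbers came from the sample titles. 1 marker gene is not reported here. The limma script was tested on simulated data. Alternatives were peaks with a -log10 q of at least 3, 45748 top peaks per list, gene spans alone or plus 2 kb, scaled coverage, log2(bases + 100), no filter, an exact permutation within strata (400 assignments, smallest p 0.005), a block on the replicate number, and each library left out in turn. Peaks at least 124 bp wide were added after seeing the data.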

Additional observations from a re-analysis of the deposited data

How the results depend on the processing

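Covered bases follow peak borders, so they carry the depth and fragment length of a library, and 3 libraries per group limit precision. The 18 histone genes higher in resistant cells became 2 with gene spans alone, 0 with scaled coverage and 7 by exact permutation within strata. They ranged from 7 (without parental treated replicate 1) to 20 when a library was left out. In treated cells the 13 became 25 with -log10 q of at least 3, 2 with gene spans alone, 20 with 2 kb added and 0 with scaled coverage. Leaving out a library gave 1 (without resistant treated replicate 1) to 17. In untreated cells 1 passed with -log10 q of at least 3, and 0 to 0 on leaving out a library. For treatment in parental cells 1 passed with -log10 q of at least 3, 1 with scaled coverage and 2 with log2 values, where H4C15 changed by -1.89 and H4C11 by -1.51 on the log2 scale, and 0 to 4 on leaving out a library (4 without parental untreated replicate 3). Averaged treatment gave 0 to 1, and interaction, treatment in resistant cells and both presence tests 0 to 0. The causes were not tested.

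Replicate numbers were no pairing: deviations of 18 same-numbered library pairs correlated between -0.362 and 0.529, with a median of -0.048 and 5 over 0.1. With a replicate block 16 genes passed by phenotype and 11 in treated cells, and it left the other counts at 0.

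The mean number of histone genes with a peak, in untreated parental, treated parental, untreated resistant and treated resistant libraries, became 53, 50.3, 51.7 and 51.7 with 2 kb added. In the first 3 of these groups it became 49.3, 47.7 and 49.3 with -log10 q of at least 3, and 49.7, 48.3 and 49.3 with gene spans alone. With peaks of at least 124 bp it was 48.7 in treated parental and 49.7 in untreated resistant, and with equal numbers of top peaks 50 in untreated resistant libraries. Leaving out a library gave 50.5 to 51, 49 to 49, 50.5 to 51 and 49.5 to 50.5. Summed coverage in the 4 groups was 20.3, 14.6, 23.1 and 21.8 kb with gene spans alone, 47.7 kb in treated resistant libraries with 2 kb added, and 39.0 to 42.2, 28.5 to 31.7, 45.6 to 48.9 and 42.5 to 45.7 kb on leaving out a library.

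The sign changes given below with values for single genes were all at genes that had not passed. With scaled coverage, 19 of the 50 phenotype differences were positive, against 49 unscaled. Those of the 18 genes called by phenotype stayed positive. Of the 13 called in treated cells, 12 stayed positive and the other, which had passed unscaled, did not. Leaving out a library gave -66.33 to 28.2 bp for phenotype at H2BC18, and for treatment -13.92 to 51.8 bp at H2BC17 and -31.58 to 55.3 bp at H4C3. For the interaction it gave -222 to 105.5 bp at H3C3 and -262.17 to 123.8 bp at H1-5. Treatment at H2BC17 was -25 bp with -log10 q of at least 3 and -170.83 bp with 2 kb added. The interaction at H3C3 was 53 bp with gene spans alone and 491 bp with 2 kb added, and at H1-5 292 bp with -log10 q of at least 3, 83 bp with gene spans alone, 52 bp with 2 kb added and 0.020 with log2 values. Of the 12 named genes called by phenotype, 10 no longer passed with gene spans alone, 12 with scaled coverage and 1 (H2AC11) without the filter on low values.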
